A study of Mus musculus with 6 samples.

Results

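Glucose enters a cell through facilitative transporters, is trapped by a hexokinase and runs down glycolysis to pyruvate, which is either reduced to lactate or passed to the mitochondrion. The 10 genes described here control that route. Slc2a1, Slc2a3 and Slc2a4 encode the basal, the high-affinity and the insulin-responsive glucose transporter, and skeletal muscle fibres rely on the last of these. Hk1 and Hk2 encode the widely expressed and the insulin-responsive hexokinase. Pfkfb3 encodes the kinase that makes the activator of phosphofructokinase, and Pkm encodes pyruvate kinase. Ldha and Ldhb encode the muscle-type and heart-type subunits of lactate dehydrogenase. Pdk4 encodes a kinase that inhibits pyruvate dehydrogenase in the mitochondrion during fasting.

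The members were given as a fixed list of gene symbols that uses no measured value, and 10 of 10 matched 1 gene each among the 32285 genes of the count tables. Single-cell RNA was measured in mononucleated, propidium iodide-negative sorted cells from the tibialis anterior, a shin muscle, of both hindlimbs of wild-type mice. There were 6 libraries: cells collected at ZT16 and at ZT4 (zeitgeber time, hours after lights on) from uninjured muscle (day 0), and at ZT16 and at ZT4 on day 1 and on day 3 after cardiotoxin injection, which kills fibres. Each of the 6 groups was 1 library, and the number, sex and age of the animals behind a library are not stated, so there is no replicate check, no test and no error between animals for any difference below. The libraries held 72747703 to 132221721 UMIs (unique molecular identifiers, 1 per captured transcript), and 58469 cells were kept of 68724 barcodes.

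Levels are UMIs of a gene per 1000000 UMIs of all genes (CPM), summed over the cells of a class in 1 library. The kit captures transcripts at their 3′ end, so these counts do not scale with transcript length, and isoforms of 1 gene are not told apart. Brackets hold 95% intervals that cover counting error only, since PCR copies share a UMI but animals were not repeated. A difference was counted as higher or lower when it reached 1.5-fold and the 2 groups held at least 30 UMIs of the gene between them, in a class with at least 50 cells in each group. Cells fell into 15 classes by markers that did not include the members, and each is written with the ending -like. The label on all 6 libraries is skeletal muscle cells, but the classes led by fibre genes held 2062 cells at ZT16 and 1446 cells at ZT4 on day 0, and 11 and 10 cells at ZT16 and ZT4 on day 1. Most cells of day 1 were monocyte-macrophage-like (4197 at ZT16, 3964 at ZT4) or neutrophil-like (4221 at ZT16, 4814 at ZT4). The 2 collection times and the 3 days were each a different library, so library and condition cannot be told apart. Across libraries, 562 barcode sequences occurred in 2 or more.

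The RefSeq promoter table for GRCm38.p6 held 12 windows for 8 of the members, each 300 bases long, 250 before and 50 after an annotated start. The core of the hypoxia response element was searched on both strands in its 2 spellings, the first being ACGTG and the second GCGTG. So was the E-box CACGTG, a word bound by clock and MYC-family factors, which holds the first spelling on each strand. Either core stood in 10 of the 12 windows, and in 43.8% of all 32851 windows of that length. The first spelling alone stood in 19.6% of all windows, the second in 32.4% and the E-box in 7.15%. A match is a description of the letters and not evidence of binding. The 5 windows below were chosen with the members' values known, and capitals mark these words on either strand. Slc2a1, Hk2, Pfkfb3 and Pdk4 are shown because each differed between collection times in at least 2 classes of day 0, and Ldha because its window held the most matches while its level differed in no class.
Slc2a1, chr4:119108495-119108794, plus strand: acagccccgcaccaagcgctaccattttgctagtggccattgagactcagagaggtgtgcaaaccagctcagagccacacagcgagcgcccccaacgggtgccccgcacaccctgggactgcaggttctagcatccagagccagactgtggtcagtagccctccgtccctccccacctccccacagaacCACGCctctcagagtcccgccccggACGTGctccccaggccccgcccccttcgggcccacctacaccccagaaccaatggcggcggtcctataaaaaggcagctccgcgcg
Hk2, chr6:82774405-82774704, minus strand: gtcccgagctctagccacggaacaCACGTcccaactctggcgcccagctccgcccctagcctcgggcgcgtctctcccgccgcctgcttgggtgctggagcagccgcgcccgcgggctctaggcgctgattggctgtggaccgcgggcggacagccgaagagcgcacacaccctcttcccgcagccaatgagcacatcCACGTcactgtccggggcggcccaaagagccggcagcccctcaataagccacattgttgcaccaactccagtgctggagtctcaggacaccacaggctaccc
Pfkfb3, chr2:11553880-11554179, minus strand: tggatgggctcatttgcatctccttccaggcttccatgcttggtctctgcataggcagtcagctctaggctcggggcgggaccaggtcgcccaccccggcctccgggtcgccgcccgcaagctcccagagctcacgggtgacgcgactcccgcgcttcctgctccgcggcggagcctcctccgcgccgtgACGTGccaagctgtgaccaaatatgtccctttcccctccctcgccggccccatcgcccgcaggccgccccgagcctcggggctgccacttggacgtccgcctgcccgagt
Ldha, chr7:46845554-46845853, plus strand: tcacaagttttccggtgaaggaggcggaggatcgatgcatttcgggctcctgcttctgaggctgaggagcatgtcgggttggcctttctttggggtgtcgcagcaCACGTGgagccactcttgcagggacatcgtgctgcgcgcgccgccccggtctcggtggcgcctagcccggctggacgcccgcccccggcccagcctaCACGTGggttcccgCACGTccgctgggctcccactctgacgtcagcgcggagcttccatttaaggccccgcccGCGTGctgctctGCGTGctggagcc
Pdk4, chr6:5496229-5496528, minus strand: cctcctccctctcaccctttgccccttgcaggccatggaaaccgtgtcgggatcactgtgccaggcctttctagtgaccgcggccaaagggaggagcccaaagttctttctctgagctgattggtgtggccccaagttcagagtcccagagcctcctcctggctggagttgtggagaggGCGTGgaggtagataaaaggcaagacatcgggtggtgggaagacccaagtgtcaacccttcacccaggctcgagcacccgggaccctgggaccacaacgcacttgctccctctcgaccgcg
The Ldha window held 2 E-boxes, whereas the windows of Slc2a1, Hk2, Pfkfb3 and Pdk4 shown here held none. The Slc2a1 and Hk2 windows held 2 cores each and those of Pfkfb3 and Pdk4 held 1 each. On the same 12 windows, AGAACA, a repeat unit of the glucocorticoid receptor's element, stood in 1 (a window of Hk1), AGGTCA, the repeat unit of PPAR elements, in 2 (windows of Pkm and Ldhb), and GTAAACA, the FOXO core, in 0. Over all windows their shares were 19%, 16.3% and 3.65%.

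On day 0, 11 classes could be compared between ZT16 and ZT4, giving 110 member values, of which 74 held enough UMIs. Of these 74, 12 were higher at ZT16 and 7 were lower, where 8.11% of all 91827 gene and class values tested were higher and 7.78% were lower. Hk2 was higher at ZT16 in 5 of the 8 classes tested and Slc2a1 in 4 of 6, and neither was lower in any of them. Pfkfb3 was lower at ZT16 in 3 of 7 classes and higher in none, and Pdk4 was lower in 2 of 5. Pkm and Ldha, the members with the most UMIs, stayed under 1.5-fold in 11 of 11 classes. Of the 19 calls of day 0, 10 stayed past 1.5-fold under each alternative processing run for them. These were Slc2a1 and Pfkfb3 in endothelial-like cells, Slc2a3 in fibro-adipogenic-like cells, Hk2, Pfkfb3 and Pdk4 in mature muscle-like cells, Slc2a1, Slc2a4 and Hk2 in myogenic-like cells and Hk2 in resident macrophage-like cells.

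**Figure D1:**
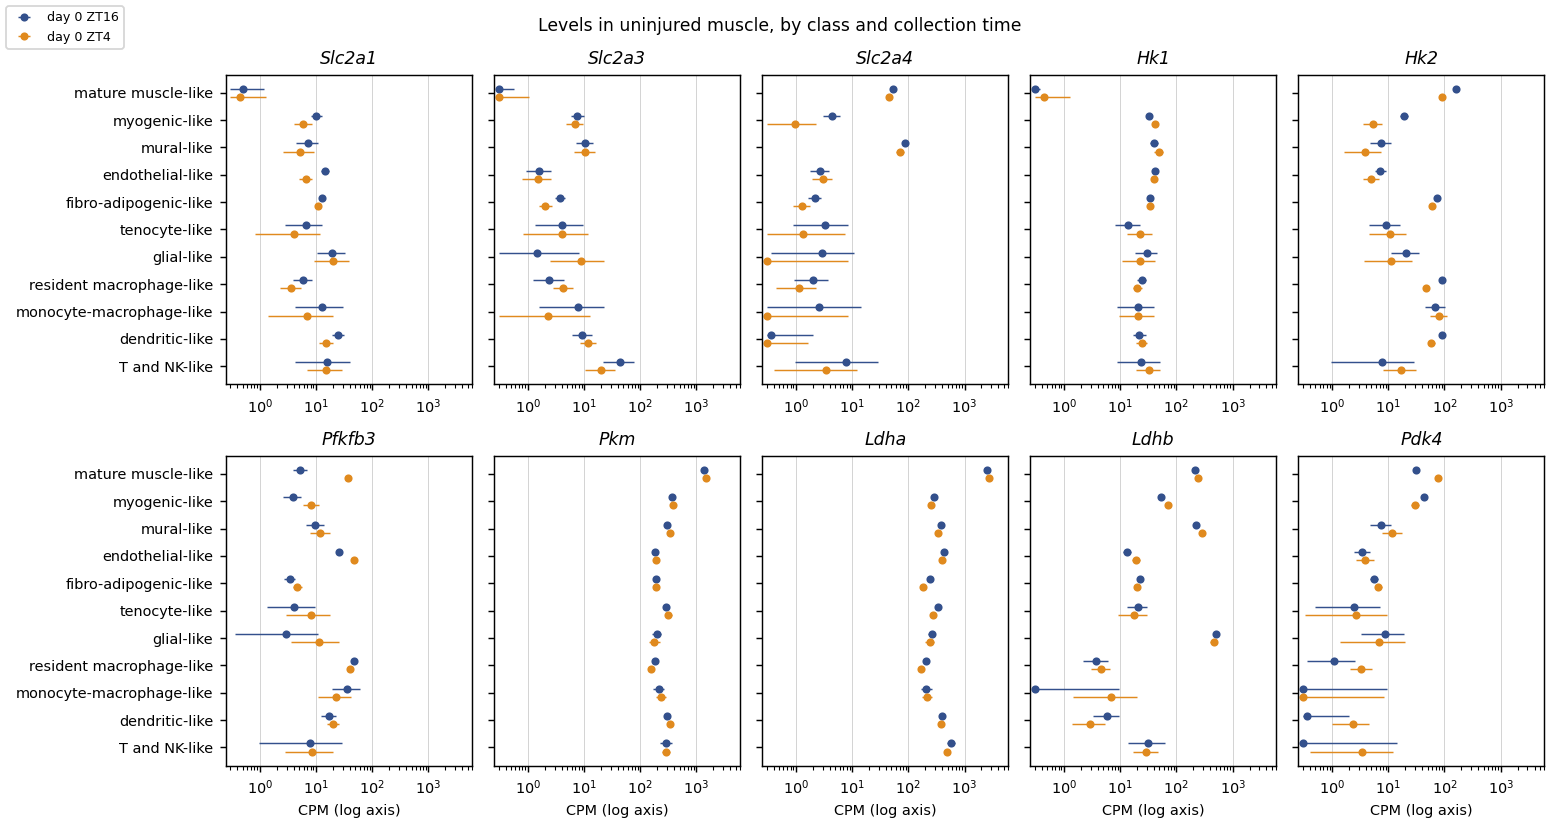
Levels of the 10 members on day 0 in the classes with at least 50 cells in both libraries, as CPM on a log axis, with ZT16 and ZT4 as separate points and bars for the 95% counting interval. Values under 0.3 CPM are drawn at 0.3. Slc2a4 is highest in mural-like and mature muscle-like cells and Pdk4 in mature muscle-like and myogenic-like cells, and Hk1 is near the floor in mature muscle-like cells alone.

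The transporters were split by cell type. Slc2a1 (chr4:119108711-119137983, plus strand, GRCm38) was found on day 0 at 24.8 CPM at ZT16 and 15.3 CPM at ZT4 in dendritic-like cells, and at 14.7 CPM at ZT16 and 6.60 CPM at ZT4 in endothelial-like cells. It was nearly missing from mature muscle-like cells, with 0.501 CPM (5 UMIs) at ZT16 and 0.436 CPM (3 UMIs) at ZT4. Fibre-like cells thus gave the lowest Slc2a1 level of the 11 classes, and the gap to every other class was wider than the difference between collection times.

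Fibro-adipogenic-like cells had 12.8 CPM of Slc2a1 at ZT16 and 10.6 CPM at ZT4, but 1 cluster carried most of it. Cluster 29 had 373 CPM at ZT16 and 279 CPM at ZT4, in 161 cells at ZT16 and 167 cells at ZT4. Without it, the class had 4.81 CPM at ZT16 and 5.26 CPM at ZT4. The leading genes of cluster 29 included Tenm2, Moxd1, Foxd1 and Cldn1. It also differed from the rest of its class in Ldhb, with 215 CPM at ZT16 and 109 CPM at ZT4. Clusters 9, 11 and 18 of that class had at most 25.4 CPM of Ldhb. The identity of cluster 29 as fibro-adipogenic-like rests on 9 of 12 markers and was not tested further, and its cells held 0.403 times the median UMIs of their libraries. The cluster is called by its number here.

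Slc2a1 was higher at ZT16 than at ZT4 in endothelial-like cells by 1.14 on the log2 scale [0.69 to 1.63], on 158 and 53 UMIs. The largest endothelial-like cluster, cluster 2, had 14.7 CPM at ZT16 and 7.46 CPM at ZT4. The median of all genes tested in this class was −0.12, so the gene moved against that shift. In myogenic-like cells Slc2a1 had 10.1 CPM at ZT16 and 5.93 CPM at ZT4, and in resident macrophage-like cells 5.94 CPM at ZT16 and 3.65 CPM at ZT4. The resident macrophage-like ratio of 0.70 had a counting interval that reached −0.15, and it was 0.34 when clusters were cut more coarsely. Of the 8 clusters with enough UMIs on day 0, 7 had a higher Slc2a1 level at ZT16 and 3 reached 1.5-fold, with a median log2 ratio of 0.48. The share over all genes was not taken for single clusters, so cluster counts here and below are descriptions only.

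On day 1 Slc2a1 was lower at ZT16 in 1 of the 4 classes tested and higher in none. Monocyte-macrophage-like cells had 29.5 CPM at ZT16 and 46.5 CPM at ZT4, a log2 ratio of −0.66 [−0.75 to −0.56]. Of the 9 clusters tested on day 1, 1 had a higher level at ZT16 and 1 was lower by 1.5-fold. Whether the ratio differs between day 1 and day 0 was not tested, since each compares single libraries. The makeup of the class differed between the libraries: cluster 0, led by Ppbp and Arg1, held 2920 of its cells at ZT16 and 2037 at ZT4, and cluster 5, led by Dmkn and Serpinb2, held 1146 at ZT16 and 1820 at ZT4. Within cluster 0 the levels were 26.9 CPM at ZT16 and 40.3 CPM at ZT4, and within cluster 5 they were 39.8 CPM at ZT16 and 56.1 CPM at ZT4. Both cluster ratios, −0.58 and −0.49 on the log2 scale, had the direction of the class and fell short of 1.5-fold, as did the class with cells thinned to equal depth, at −0.55. Neutrophil-like cells held the most Slc2a1 of any class on day 1, with 86.1 CPM at ZT16 and 106 CPM at ZT4.

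Slc2a3 (chr6:122727809-122801640, minus strand) was highest in neutrophil-like cells. These had 120 CPM at ZT16 and 101 CPM at ZT4 on day 1, and 129 CPM at ZT16 and 90.5 CPM at ZT4 on day 3. In monocyte-macrophage-like cells of the same libraries the level was 2.74 CPM at ZT16 and 2.44 CPM at ZT4 on day 1, and 1.45 CPM at ZT16 and 1.83 CPM at ZT4 on day 3. Slc2a3 made up 58.3% (ZT16) and 48.8% (ZT4) of the UMIs of the 3 transporters in neutrophil-like cells on day 1, against 8.51% and 4.98% in monocyte-macrophage-like cells at those times. Within the neutrophil-like class the Retnlg-led cluster 4 had the most, 187 CPM at ZT16 and 176 CPM at ZT4, and cluster 15, led by Pdcd1lg2, had the least, 52.3 CPM at ZT16 and 37.1 CPM at ZT4. T and NK-like cells had 43.4 CPM at ZT16 and 20.4 CPM at ZT4 on day 0, on only 11 and 12 UMIs. On day 3 they had 24.2 CPM at ZT16 and 14.5 CPM at ZT4, a log2 ratio of 0.72 [−0.08 to 1.62].

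Between collection times on day 0, fibro-adipogenic-like cells had 3.76 CPM of Slc2a3 at ZT16 and 2.04 CPM at ZT4, a log2 ratio of 0.88 [0.40 to 1.37]. Resident macrophage-like cells had 2.42 CPM at ZT16 and 4.28 CPM at ZT4 on 11 and 27 UMIs, and the interval of their ratio, −1.98 to 0.24, included 0. So did that of dendritic-like cells on day 1, −0.04 to 1.88, with 7.96 CPM at ZT16 and 4.30 CPM at ZT4.

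Slc2a4 (chr11:69942539-69948188, minus strand) was highest not in the fibre-like cells but in mural-like cells, the cells of the vessel wall. On day 0 mural-like cells had 88.4 CPM at ZT16 and 71.0 CPM at ZT4, and mature muscle-like cells had 53.4 CPM at ZT16 and 44.9 CPM at ZT4. These are shares of each class's UMIs in cells sorted as mononucleated, so the level in whole muscle fibres was not measured. Cluster 39, led by Grp and Pln with smooth muscle genes such as Cnn1 and Myocd among its leading genes, had 134 CPM at ZT16 and 117 CPM at ZT4. The other classes on day 0 held at most 7.89 CPM, on 2 UMIs. The 11 fibre genes counted for free RNA took 0.965% (ZT16) and 0.809% (ZT4) of the UMIs of mural-like cells, against 23.7% (ZT16) and 24.5% (ZT4) in mature muscle-like cells. Fibre RNA in that proportion would carry 2.17 CPM of Slc2a4 at ZT16 and 1.48 CPM at ZT4 into mural-like cells. Neutrophil-like, dendritic-like, T and NK-like and endothelial-like cells had 0 UMIs of Slc2a4 in both libraries of day 1 and of day 3.

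Myogenic-like cells, the class of muscle stem cells, had 4.37 CPM of Slc2a4 at ZT16 (34 UMIs) and 0.957 CPM at ZT4 (5 UMIs), a log2 ratio of 2.07 [0.83 to 3.90]. Cluster 13, with 965 of the cells at ZT16 and 887 at ZT4, held 16 UMIs at ZT16 and 5 at ZT4, a ratio of 1.22 [−0.20 to 3.12]. The other 18 UMIs at ZT16 came from 71 cells of clusters 21 and 33, of which the ZT4 library held 5 cells with 0 UMIs. Fibre RNA in proportion to the fibre genes would carry 1.28 CPM at ZT16 and 0.859 CPM at ZT4 into myogenic-like cells, so the level at ZT4 lay near it. In fibro-adipogenic-like cells Slc2a4 had 2.17 CPM at ZT16 and 1.28 CPM at ZT4, where that proportion would carry 0.974 CPM at ZT16 and 0.626 CPM at ZT4, and the ratio of 0.75 was 0.29 on 10 UMIs with cells thinned to equal depth. Mural-like and mature muscle-like cells stayed under 1.5-fold.

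The hexokinases divided the classes in a different way. Hk1 (chr10:62268855-62379908, minus strand) was found in nearly every class on day 0, led by mural-like cells (40.0 CPM at ZT16, 48.3 CPM at ZT4) and endothelial-like cells (41.5 CPM at ZT16, 39.8 CPM at ZT4). Mature muscle-like cells were the exception, with 0 UMIs at ZT16 and 3 UMIs at ZT4. Hk2 (chr6:82725025-82774454, minus strand) was highest there, with 161 CPM at ZT16 and 91.9 CPM at ZT4, and lowest in endothelial-like cells, with 7.235 CPM at ZT16 and 4.98 CPM at ZT4, and mural-like cells, with 7.47 CPM at ZT16 and 3.79 CPM at ZT4. Hk2 therefore made up 100% (ZT16) and 99.5% (ZT4) of the UMIs of both hexokinases in mature muscle-like cells, and 14.9% (ZT16) and 11.1% (ZT4) in endothelial-like cells. Resident macrophage-like cells stood between them, at 78.6% (ZT16) and 69.5% (ZT4).

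Of the 5 classes in which Hk2 was higher at ZT16 on day 0, 3 stayed past 1.5-fold under each alternative run for them and 2, dendritic-like and mural-like, did not. Mature muscle-like cells differed by 0.81 on the log2 scale [0.67 to 0.94], on 1604 UMIs at ZT16 and 633 UMIs at ZT4. Resident macrophage-like cells had 89.1 CPM at ZT16 and 46.0 CPM at ZT4, a ratio of 0.95 [0.73 to 1.18]. Dendritic-like cells had 92.1 CPM at ZT16 and 58.4 CPM at ZT4, a ratio of 0.66 [0.39 to 0.93] that was 0.42 under coarser clustering.

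The ratio was largest in myogenic-like cells, where Hk2 had 18.9 CPM at ZT16 (147 UMIs) and 5.36 CPM at ZT4 (28 UMIs). As a share of both hexokinases, that is 36.8% at ZT16 and 11.3% at ZT4. Cells with at least 3 UMIs of G2M genes, called dividing here, were more frequent in the ZT16 library, 62 of 1036 (5.98%), than in the ZT4 library, 8 of 892 (0.897%). Without them the log2 ratio was 1.85, against 1.80 with all cells. In cluster 13, which held 965 of the cells at ZT16 and 887 at ZT4 and whose leading genes Chrdl2, Edn3 and Calcr are not cell cycle genes, Hk2 had 19.6 CPM at ZT16 and 5.40 CPM at ZT4. Mural-like cells also passed 1.5-fold, but on 23 UMIs at ZT16 and 8 UMIs at ZT4, and their ratio was −0.08 when barcodes scored as doublets were kept.

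Hk2 was also read in single clusters. Of the 11 clusters with enough Hk2 UMIs on day 0, 10 were above 0 and 8 reached 1.5-fold, with a median log2 ratio of 0.70. How often other genes do so in single clusters was not counted. Both fibre-like clusters took part: cluster 7, led by Myl3 with Mb and Myh2, had 174 CPM at ZT16 and 107 CPM at ZT4, and cluster 17, with Ampd1 and Myh4, had 135 CPM at ZT16 and 66.6 CPM at ZT4. Fibro-adipogenic-like cells were divided. Cluster 9, led by Necab1 and Gsta3, had 57.8 CPM at ZT16 and 35.8 CPM at ZT4, while cluster 11, led by Adamts16 and Cldn3, had 97.6 CPM at ZT16 and 93.1 CPM at ZT4.

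**Figure D2:**
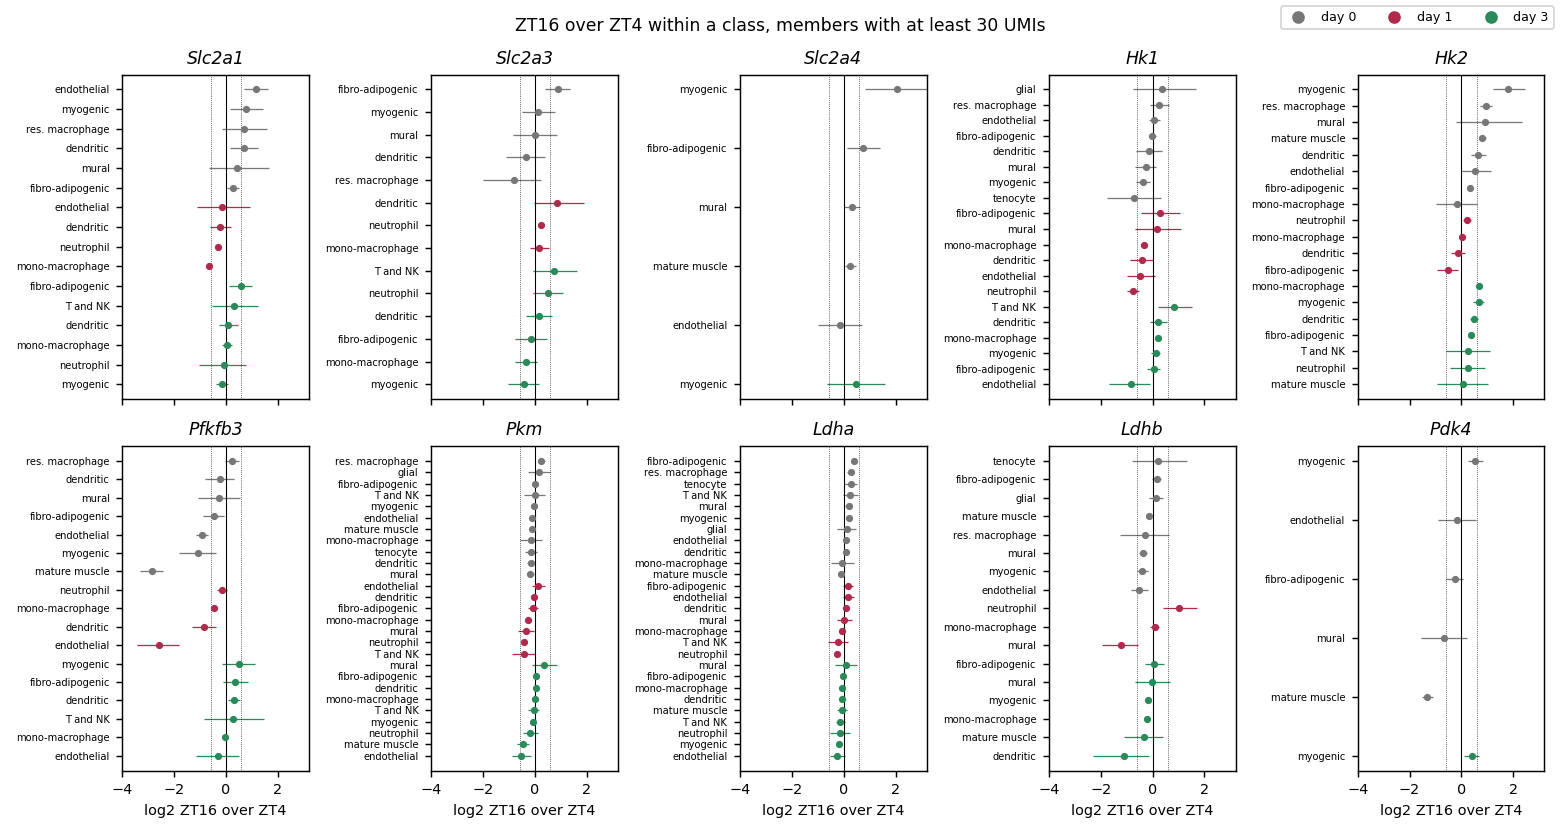
Log2 ratio of the level at ZT16 over ZT4 for each member, by class and day, with bars for the 95% counting interval cut at the edges of the axis. On day 0 the Hk2 points of the 5 classes past 1.5-fold lie to the right of 0 and the 3 of Pfkfb3 lie to the left, while Pkm and Ldha stay inside 1.5-fold on all 3 days.

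On day 3, 57 member values were tested in 9 classes, and 4 were higher and 2 lower at ZT16, where 7.36% of all values tested were higher and 5.52% lower. Of these 6, 2 stayed past 1.5-fold under each alternative, Hk2 in monocyte-macrophage-like and Hk1 in endothelial-like cells. Hk2 accounted for 2 of the 4. Monocyte-macrophage-like cells had 65.7 CPM at ZT16 and 41.3 CPM at ZT4, a ratio of 0.67 [0.59 to 0.74] on 3707 and 2500 UMIs. Myogenic-like cells had 19.9 CPM at ZT16 and 12.5 CPM at ZT4, a ratio of 0.66 [0.45 to 0.88], beside a median of 0.10 over all genes tested in that class, and the ratio was 0.53 with doublet-scored barcodes kept. All 9 classes had a point estimate above 0 on day 3, some on fewer than 30 UMIs.

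Within the monocyte-macrophage-like class of day 3, the 3 large clusters had point estimates of Hk2 above 0, and 1 of them reached 1.5-fold. Cluster 1, led by Cd5l and Gpnmb, had 61.2 CPM at ZT16 and 42.8 CPM at ZT4, and cluster 10, with Cxcl10 and Rsad2, had 70.6 CPM at ZT16 and 49.6 CPM at ZT4, log2 ratios of 0.52 and 0.51 that fell short. Cluster 6, led by Il10 and Ccl8, had 69.9 CPM at ZT16 and 36.7 CPM at ZT4. Cluster 24, a small cluster led by Prr11 and Aspm, genes of dividing cells, had 54.4 CPM at ZT16 and 23.9 CPM at ZT4. The myogenic-like clusters did not move together: cluster 28, led by Myh3 and Tnnt2, genes of differentiating myocytes, had 7.61 CPM at ZT16 and 9.01 CPM at ZT4, and clusters 21 and 33 were at 0.77 and 1.23 on the log2 scale.

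Day 1 showed no such pattern for Hk2. Its level was 61.9 CPM at ZT16 and 61.3 CPM at ZT4 in monocyte-macrophage-like cells and 79.0 CPM at ZT16 and 67.9 CPM at ZT4 in neutrophil-like cells, and 3 of 7 classes were above 0. In all, 38 member values were tested in 7 classes on day 1, and 2 were higher and 5 lower at ZT16, where 7.56% of all values tested were higher and 10.8% lower. Of these 7, 2 stayed past 1.5-fold under each alternative run for them, Pfkfb3 in endothelial-like and Ldhb in neutrophil-like cells. Subtraction of fibre RNA could not be run on day 1. Whether the ratio of Hk2 differs between days was not tested, since each is a ratio of single libraries.

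Hk1 differed in few classes. On day 1 neutrophil-like cells had 23.1 CPM at ZT16 and 38.8 CPM at ZT4, a ratio of −0.75 [−0.98 to −0.52] that was −0.48 with cells thinned to equal depth, and 4 of 11 clusters of that day were lower at ZT16. On day 3 it was lower at ZT16 in endothelial-like cells, with 34.3 CPM at ZT16 and 62.6 CPM at ZT4 on 20 and 50 UMIs, and higher in T and NK-like cells, with 39.8 CPM at ZT16 and 22.1 CPM at ZT4. The T and NK-like class was made differently in the 2 libraries of day 3. The Cd3e-led cluster 22 held 182 of its cells at ZT16 and 123 at ZT4, with a Hk1 ratio of 0.04, and the Klra8-led cluster 30 held 98 at ZT16 and 152 at ZT4, with a ratio of 1.71.

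Pfkfb3 (chr2:11471433-11554077, minus strand) had its highest levels on day 0 in resident macrophage-like cells (47.8 CPM at ZT16, 40.6 CPM at ZT4) and endothelial-like cells (25.1 CPM at ZT16, 47.5 CPM at ZT4). In mature muscle-like cells it had 5.21 CPM at ZT16 and 37.8 CPM at ZT4, on 52 and 260 UMIs. That log2 ratio of −2.85 [−3.32 to −2.42] was the largest of any member in any class tested on day 0. The fall sat mainly in cluster 17, which had 5.92 CPM at ZT16 and 77.5 CPM at ZT4. Cluster 7 had 4.86 CPM at ZT16 and 14.1 CPM at ZT4.

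Endothelial-like cells differed by −0.92 on the log2 scale [−1.15 to −0.69], beside −0.12 for the median of all genes in that class. The difference was widest in cluster 23, whose leading genes Gkn3 and Gja5 mark arteries, with 28.1 CPM at ZT16 and 97.4 CPM at ZT4. Cluster 2, the largest, had 27.0 CPM at ZT16 and 44.3 CPM at ZT4. Myogenic-like cells had 3.85 CPM at ZT16 and 8.23 CPM at ZT4, on 30 and 43 UMIs, and thinning to equal depth left 7 UMIs and a ratio of 0.15. Of 12 clusters tested on day 0, 1 was above 0 and 6 were lower by 1.5-fold. The cluster above 0 was that of resident macrophage-like cells.

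Endothelial-like Pfkfb3 was lower at ZT16 on day 1 as well, with 12.6 CPM at ZT16 (20 UMIs) and 76.3 CPM at ZT4 (46 UMIs), a ratio of −2.57. Dendritic-like cells had 16.2 CPM at ZT16 and 28.96 CPM at ZT4 on that day. On day 3 none of the 6 classes tested reached 1.5-fold for Pfkfb3.

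Pkm (chr9:59656368-59679375, plus strand) and Ldha (chr7:46841475-46855627, plus strand) carry the end of the pathway and gave the most UMIs. Mature muscle-like cells had 1341 CPM of Pkm at ZT16 and 1456 CPM at ZT4, and 2500 CPM of Ldha at ZT16 and 2702 CPM at ZT4, on day 0. The other classes of day 0 lay between 154 and 381 CPM for Pkm and between 168 and 572 CPM for Ldha. Neither gene reached 1.5-fold between collection times in any class on day 0, 1 or 3. The extremes were −0.52 and 0.37 for Pkm and −0.26 and 0.39 for Ldha on the log2 scale. Mouse Ldha has pseudogene copies, and how reads shared with them were counted is not stated.

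Ldhb (chr6:142490249-142507957, minus strand) was a gene of a few cell types. Glial-like cells, the class of Schwann cells, had 503 CPM at ZT16 and 460 CPM at ZT4 on day 0, and mural-like cells had 219 CPM at ZT16 and 283 CPM at ZT4. Its share of the UMIs of both subunits was 66.0% (ZT16) and 65.7% (ZT4) in glial-like cells and 36.4% (ZT16) and 45.9% (ZT4) in mural-like cells. In dendritic-like cells the share was 1.43% (ZT16) and 0.759% (ZT4).

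The fibre-like clusters were split far more for Ldhb than for Ldha, and in the other direction. Cluster 7, which holds the genes of oxidative fibres Myl3, Mb and Myh2, had 320 CPM of Ldhb at ZT16 and 373 CPM at ZT4. Cluster 17, which holds the fast glycolytic fibre gene Myh4, had 9.47 CPM of Ldhb at ZT16 and 14.01 CPM at ZT4. For Ldha, cluster 7 had 2089 CPM at ZT16 and 2214 CPM at ZT4, and cluster 17 had 3303 CPM at ZT16 and 3521 CPM at ZT4. On day 1 Ldhb was higher at ZT16 in neutrophil-like cells, with 5.61 CPM at ZT16 and 2.72 CPM at ZT4. It was lower in mural-like cells, with 51.6 CPM at ZT16 and 122 CPM at ZT4 on 34 and 43 UMIs. On day 3 it was lower at ZT16 in dendritic-like cells, with 1.09 CPM at ZT16 and 2.43 CPM at ZT4.

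Pdk4 (chr6:5483351-5496309, minus strand) was found on day 0 in mature muscle-like cells at 31.2 CPM at ZT16 and 77.8 CPM at ZT4, and in myogenic-like cells at 43.0 CPM at ZT16 and 29.7 CPM at ZT4. Every other class was under 12 CPM. The mature muscle-like ratio was −1.32 on the log2 scale [−1.53 to −1.12], and both fibre-like clusters took part, cluster 7 with 37.9 CPM at ZT16 and 99.6 CPM at ZT4 and cluster 17 with 18.1 CPM at ZT16 and 41.3 CPM at ZT4. On day 3, with 71 cells at ZT16 and 58 at ZT4, the mature muscle-like class had 48.2 CPM at ZT16 (9 UMIs) and 98.0 CPM at ZT4 (18 UMIs), under the 30 UMIs needed. Myogenic-like cluster 13 went the other way, with 47.1 CPM at ZT16 and 29.7 CPM at ZT4. The lower level in mural-like cells, 7.47 CPM at ZT16 and 11.8 CPM at ZT4, rested on 23 and 25 UMIs, with an interval across 0.

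In the fibre-like and myogenic-like cells of day 0 the rest of the pathway was described by 8 lists of 87 genes, of which 87 were matched. Among 12 tested glycolytic enzymes in mature muscle-like cells, 1 was higher and 0 were lower at ZT16, with a median log2 ratio of −0.07, where the median of all genes tested was 0.06, with 8.06% of genes higher and 4.71% lower. Of 9 other uptake genes, 2 were higher and 2 lower. One of these was Txnip, whose product restrains glucose uptake, with 108 CPM at ZT16 and 333 CPM at ZT4. Among 14 fasting-response genes driven by PPAR and FOXO, 2 were higher and 2 lower. The 2 lower were Angptl4, an inhibitor of lipoprotein lipase, and Ucp3, a mitochondrial carrier, with 14.9 CPM at ZT16 and 32.5 CPM at ZT4.

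In myogenic-like cells of day 0, none of 13 glycolytic enzymes tested was higher or lower, with a median of 0.26 beside −0.01 for all genes, of which 9% were higher and 7.61% lower. Of 13 fasting-response genes, 2 were higher and 4 lower. The 4 were Angptl4, with 1.67 CPM at ZT16 and 26.4 CPM at ZT4, Ucp2, with 12.3 CPM at ZT16 and 48.4 CPM at ZT4, Cd36, which imports fatty acids, and Cpt1a, which admits them to the mitochondrion. Txnip had 90.4 CPM at ZT16 and 154 CPM at ZT4 there, and the related arrestin Arrdc4 had 1.93 CPM at ZT16 and 8.23 CPM at ZT4. Angptl4 was lower at ZT16 in other classes of day 0 too. Its log2 ratio was −1.72 in endothelial-like, −3.83 in fibro-adipogenic-like, −3.23 in glial-like and −2.77 in mural-like cells.

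In the 2 main classes of day 1 the genes of HIF-1 and its targets were lower at ZT16 in part. Of 11 tested in monocyte-macrophage-like cells, 5 were lower and 0 higher, with a median of −0.51 beside −0.01 for all genes, of which 6.03% were higher and 8.33% lower. Hif1a, the oxygen-regulated subunit, had 288 CPM at ZT16 and 567 CPM at ZT4. Outside that list, 1 of 6 lactate and pyruvate transport genes was lower and 0 were higher. It was Slc16a3, the lactate exporter, with 60.5 CPM at ZT16 and 120 CPM at ZT4. Lower Hif1a at ZT16 was not particular to the main classes, since it passed 1.5-fold in all 7 classes compared on day 1. Its log2 ratio was −1.28 in fibro-adipogenic-like, −1.12 in T and NK-like, −0.94 in dendritic-like, −0.77 in endothelial-like and −0.74 in mural-like cells. In neutrophil-like cells 5 of 11 were also lower and 0 higher, with a median of −0.38 beside 0.05 for all genes, of which 8.69% were higher and 7.38% lower, and Hif1a had 95.1 CPM at ZT16 and 206 CPM at ZT4. Cluster 15 held 383 of the 4221 neutrophil-like cells at ZT16 and 1035 of the 4814 at ZT4, and the part of this makeup in the counts was not tested. The glycolytic enzymes Pgk1 (59.7 CPM at ZT16, 116 CPM at ZT4) and Eno1 (143 CPM at ZT16, 265 CPM at ZT4) were among the 4 of 14 lower there. Slc2a1 was lower at ZT16 by 1.5-fold in monocyte-macrophage-like cells, though not with cells thinned to equal depth (−0.55), and by less in neutrophil-like cells. Whether it is linked to the HIF-1 genes was not tested.

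The members were next compared between days at each collection time, and a difference was counted where it passed at both ZT16 and ZT4. Day 1 over day 0 could be read in 6 classes, where 6 of 40 member values were higher on day 1 and 7 lower, beside 9.62% and 17.5% of all values tested. Day 3 over day 0 gave 6 higher and 13 lower of 59 in 8 classes, beside 11.4% and 15.6%. Day 3 over day 1 gave 3 higher and 8 lower of 41 in 7 classes, beside 16.2% and 8.4%. The first 2 comparisons share the day 0 libraries. In CPM, 1 of the 13 lower values of day 3 over day 0 was under 1.5-fold at ZT4. It was Slc2a3 in monocyte-macrophage-like cells, at 1.26-fold, on 1 UMI on day 0. Likewise, 1 of the 3 higher values of day 3 over day 1 was under 1.5-fold at ZT16. It was Ldhb in neutrophil-like cells, at 1.35-fold, on 3 UMIs on day 3. Both were counted only on log2 ratios, for which a fraction of a UMI was added. Of the 7 lower values of day 1 over day 0, 4 had a library with 0 UMIs, and with that library set at the floor of 3 UMIs, 3 of the 4 were not 1.5-fold lower at both times: Hk2 and Pdk4 in endothelial-like cells and Slc2a4 in fibro-adipogenic-like cells. Calls that stayed past 1.5-fold under each alternative run for them numbered 8 of 13 for day 1 over day 0, 7 of 19 for day 3 over day 0 and 8 of 11 for day 3 over day 1. An alternative was not run where a class fell under 50 cells, so small classes met fewer checks. Monocyte-macrophage-like cells of day 0 at ZT16 fell to 45 with at most 5% mitochondrial UMIs. They fell to 36 at Leiden resolution 0.5 and to 38 with members and pathway genes used for clustering. Fibro-adipogenic-like cells of day 1 fell to 45 at each time under the mitochondrial limit. The 13 lower values of day 3 over day 0 were 3 with cells thinned to equal depth, and the 8 of day 3 over day 1 were 15 when members and pathway genes were used for clustering. Several classes were small on 1 day: monocyte-macrophage-like cells numbered 50 at ZT16 and 64 at ZT4 on day 0, and fibro-adipogenic-like cells 52 at ZT16 and 51 at ZT4 on day 1.

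In monocyte-macrophage-like cells Pkm was highest on day 1. It had 214 CPM at ZT16 and 237 CPM at ZT4 on day 0, 873 CPM at ZT16 and 1039 CPM at ZT4 on day 1, and 297 CPM at ZT16 and 299 CPM at ZT4 on day 3. Ldha followed the same course at a smaller size, with 209 CPM at ZT16 and 216 CPM at ZT4 on day 0, 417 CPM at ZT16 and 434 CPM at ZT4 on day 1, and 221 CPM at ZT16 and 228 CPM at ZT4 on day 3. Day 3 over day 1 was −1.56 at ZT16 and −1.80 at ZT4 for Pkm and −0.92 at ZT16 and −0.93 at ZT4 for Ldha, beside a median of 0.11 over all genes tested at each time. Both genes were thus high on day 1 alone, at both collection times.

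Slc2a1 in the same class had 12.8 CPM at ZT16 and 6.91 CPM at ZT4 on day 0, on 5 and 3 UMIs. It reached 29.5 CPM at ZT16 and 46.5 CPM at ZT4 on day 1, and had 8.34 CPM at ZT16 and 8.08 CPM at ZT4 on day 3. Day 3 over day 1 was −1.82 at ZT16 [−1.97 to −1.67] and −2.52 at ZT4 [−2.67 to −2.38]. Hk2 and Hk1 did not pass at both times.

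Different clusters made up this class on the 2 days after injury: clusters 0 and 5 on day 1, and clusters 1, 6 and 10 on day 3. The few cells of the day 1 clusters that were found on day 3 differed from the class. In cluster 0 Slc2a1 had 32.5 CPM at ZT16 and 26.3 CPM at ZT4 on day 3, on 26 and 33 UMIs, against 26.9 CPM at ZT16 and 40.3 CPM at ZT4 on day 1. In cluster 5 it had 18.8 CPM at ZT16 and 29.8 CPM at ZT4 on day 3, against 39.8 CPM at ZT16 and 56.1 CPM at ZT4 on day 1. Pkm was lower on day 3 within both, with 567 CPM at ZT16 and 622 CPM at ZT4 in cluster 0 on day 3, against 849 CPM at ZT16 and 1072 CPM at ZT4 on day 1.

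Ldhb ran the other way. It had 0 CPM at ZT16 and 6.91 CPM at ZT4 on day 0, on 0 and 3 UMIs, 11.4 CPM at ZT16 and 10.8 CPM at ZT4 on day 1, and 40.0 CPM at ZT16 and 46.6 CPM at ZT4 on day 3. Against the floor of 3 UMIs in the day 0 library at ZT16, the day 3 level was at least 5.22-fold higher. Its share of the UMIs of both subunits was 15.3% (ZT16) and 17.0% (ZT4) on day 3, against 2.67% (ZT16) and 2.44% (ZT4) on day 1. The Cd5l-led cluster 1 carried it, with 64.3 CPM at ZT16 and 74.1 CPM at ZT4 on day 3, whereas cluster 6 had 11.2 CPM at ZT16 and 15.1 CPM at ZT4.

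Among the lists in this class, glycolytic enzymes and HIF-1 genes were more often lower than higher, and the others were mixed. Of 16 glycolytic enzymes, 1 was higher and 6 lower on day 3 than on day 1, with medians of −0.44 at ZT16 and −0.79 at ZT4, where 23.5% of all genes tested in the class were higher and 11.8% lower. Eno1 had 98.3 CPM at ZT16 and 133 CPM at ZT4 on day 3, against 310 CPM at ZT16 and 502 CPM at ZT4 on day 1. Of 11 HIF-1 genes, 0 were higher and 6 lower, with medians of −0.82 at ZT16 and −1.01 at ZT4. Hif1a had 74.7 CPM at ZT16 and 64.4 CPM at ZT4 on day 3, against 288 CPM at ZT16 and 567 CPM at ZT4 on day 1. Among 10 other uptake genes 4 were higher and 2 lower, and Txnip, with 135 CPM at ZT16 and 118 CPM at ZT4 on day 3 against 47.7 CPM at ZT16 and 46.7 CPM at ZT4 on day 1, was one of the 4. Of 13 fasting-response genes 3 were higher and 2 lower, of 6 lactate and pyruvate transport genes 1 was higher and 2 lower, and of 10 genes of pyruvate dehydrogenase and its control 1 was higher and 1 lower. Of 4 genes that control the phosphofructokinase activator 1 was higher and 0 lower, and of 11 genes of glycogen and the pentose phosphate pathway 0 were higher and 0 lower.

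Other immune classes showed part of the same course. In dendritic-like cells Slc2a1 had 10.8 CPM at ZT16 and 10.1 CPM at ZT4 on day 3, against 26.6 CPM at ZT16 and 31.0 CPM at ZT4 on day 1, and Pkm had 199 CPM at ZT16 and 195 CPM at ZT4 on day 3, against 432 CPM at ZT16 and 444 CPM at ZT4 on day 1. In neutrophil-like cells, of which 173 at ZT16 and 283 at ZT4 remained on day 3, Slc2a1 had 45.4 CPM at ZT16 and 48.9 CPM at ZT4 on day 3, against 86.1 CPM at ZT16 and 106 CPM at ZT4 on day 1. The log2 ratios of Slc2a1 were −0.88 at ZT16 and −1.10 at ZT4. The median of all genes tested in neutrophil-like cells was 0.54 at ZT16 and 0.63 at ZT4 for this comparison. Whether that median is a shift was not tested. On day 3 the class held only 396341 UMIs at ZT16 and 674301 at ZT4. On day 1 the class held 10870329 UMIs at ZT16 and 11760987 at ZT4. The part of the 0.5 UMI added in that median was not tested.

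Myogenic-like cells could be compared on days 3 and 0 only. Pkm had 873 CPM at ZT16 and 916 CPM at ZT4 on day 3, against 373 CPM at ZT16 and 381 CPM at ZT4 on day 0. Ldha had 660 CPM at ZT16 and 744 CPM at ZT4 on day 3, against 286.5 CPM at ZT16 and 251.3 CPM at ZT4 on day 0. The class was made of different clusters on the 2 days, cluster 13 on day 0 and clusters 21, 28 and 33 on day 3, and Pkm was between 841 and 983 CPM in each of the 3 at both times.

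Pdk4 was lower in myogenic-like cells on day 3, with 9.50 CPM at ZT16 and 7.21 CPM at ZT4, against 43.0 CPM at ZT16 and 29.7 CPM at ZT4 on day 0. Slc2a3 was lower too, with 1.99 CPM at ZT16 and 2.67 CPM at ZT4 on day 3, against 7.58 CPM at ZT16 and 6.89 CPM at ZT4 on day 0. Pfkfb3 had 2.26 CPM at ZT16 and 1.60 CPM at ZT4 on day 3, against 3.85 CPM at ZT16 and 8.23 CPM at ZT4 on day 0. Slc2a1, Hk1 and Hk2 did not pass at both times. The fibre genes took 0.199% (ZT16) and 0.184% (ZT4) of the UMIs of these cells on day 3.

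Among the lists in myogenic-like cells, 8 of 13 glycolytic enzymes were higher on day 3 than on day 0 and 2 were lower, with medians of 1.01 at ZT16 and 1.18 at ZT4, where 24.6% of all genes tested were higher and 27.3% lower. Eno1 had 518 CPM at ZT16 and 591 CPM at ZT4 on day 3, against 89.6 CPM at ZT16 and 92.3 CPM at ZT4 on day 0. Of 10 genes of pyruvate dehydrogenase and its control, 5 were higher and 4 lower, and the 4 lower were the kinases Pdk1 and Pdk2 and the phosphatases Pdp1 and Pdp2. Dlat, a subunit of the complex, had 120 CPM at ZT16 and 119 CPM at ZT4 on day 3, against 34.3 CPM at ZT16 and 30.2 CPM at ZT4 on day 0.

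Other uptake genes were mostly lower in these cells on day 3, 6 of 9, with 2 higher. Txnip had 14.2 CPM at ZT16 and 14.9 CPM at ZT4 on day 3, against 90.4 CPM at ZT16 and 154 CPM at ZT4 on day 0, and the transporter Slc2a12 had 1.84 CPM at ZT16 and 1.31 CPM at ZT4 on day 3, against 32.2 CPM at ZT16 and 31.0 CPM at ZT4 on day 0. Of 14 fasting-response genes 2 were higher and 6 lower, of 12 HIF-1 genes 2 were higher and 5 lower, and of 11 genes of glycogen and the pentose phosphate pathway 4 were higher and 2 lower. Of 5 lactate and pyruvate transport genes 2 were higher and 0 lower, and of 2 other genes that control the phosphofructokinase activator, 1, Tigar, was higher.

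Fibro-adipogenic-like cells had more Hk2 on day 3, with 141 CPM at ZT16 and 110 CPM at ZT4, against 74.2 CPM at ZT16 and 59.2 CPM at ZT4 on day 0. Pkm had 192 CPM at ZT16 and 192 CPM at ZT4 on day 0, 471 CPM at ZT16 and 499 CPM at ZT4 on day 1, and 357 CPM at ZT16 and 342 CPM at ZT4 on day 3. Ldha had 242 CPM at ZT16 and 185 CPM at ZT4 on day 0, 547 CPM at ZT16 and 484 CPM at ZT4 on day 1, and 370 CPM at ZT16 and 376 CPM at ZT4 on day 3. Clusters 9, 11 and 18 made up the class on day 0, and cluster 20, led by Tnn and Lrrc15, on day 3.

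Pdk4 was lower in fibro-adipogenic-like cells after injury. It had 0 UMIs at ZT16 and at ZT4 on day 1, at least 1.68-fold lower than the 5.55 CPM of day 0 at ZT16 and at least 1.89-fold lower than the 6.68 CPM of day 0 at ZT4, and 0.764 CPM at ZT16 and 1.35 CPM at ZT4 on day 3. Slc2a4 had 0 UMIs there on day 1, but its day 0 levels of 2.17 CPM at ZT16 and 1.28 CPM at ZT4 lie under the floor of 3 UMIs, so no fold is given. Mural-like Slc2a4 had 88.4 CPM at ZT16 and 71.0 CPM at ZT4 on day 0, 22.8 CPM at ZT16 and 17.0 CPM at ZT4 on day 1, and 56.4 CPM at ZT16 and 35.4 CPM at ZT4 on day 3. Ldhb in these cells had 219 CPM at ZT16 and 283 CPM at ZT4 on day 0, 51.6 CPM at ZT16 and 122 CPM at ZT4 on day 1, and 137 CPM at ZT16 and 138 CPM at ZT4 on day 3.

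Free fibre RNA moved with the days in the same direction as these falls. The 11 fibre genes took 1.11% (ZT16) and 1.07% (ZT4) of endothelial-like UMIs on day 0, against 0.0135% (ZT16) and 0.00978% (ZT4) on day 1. The part of fibre RNA in the low levels of Pdk4, Slc2a4, Ldhb and Hk2 that fell outside the fibre-like class was not tested beyond a subtraction. Fibre RNA could be subtracted on day 0 but not on day 1, where fibre-like cells were too few. With day 1 counts unchanged, this left 4 of the 7 lower values of day 1 over day 0.

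**Figure D3:**
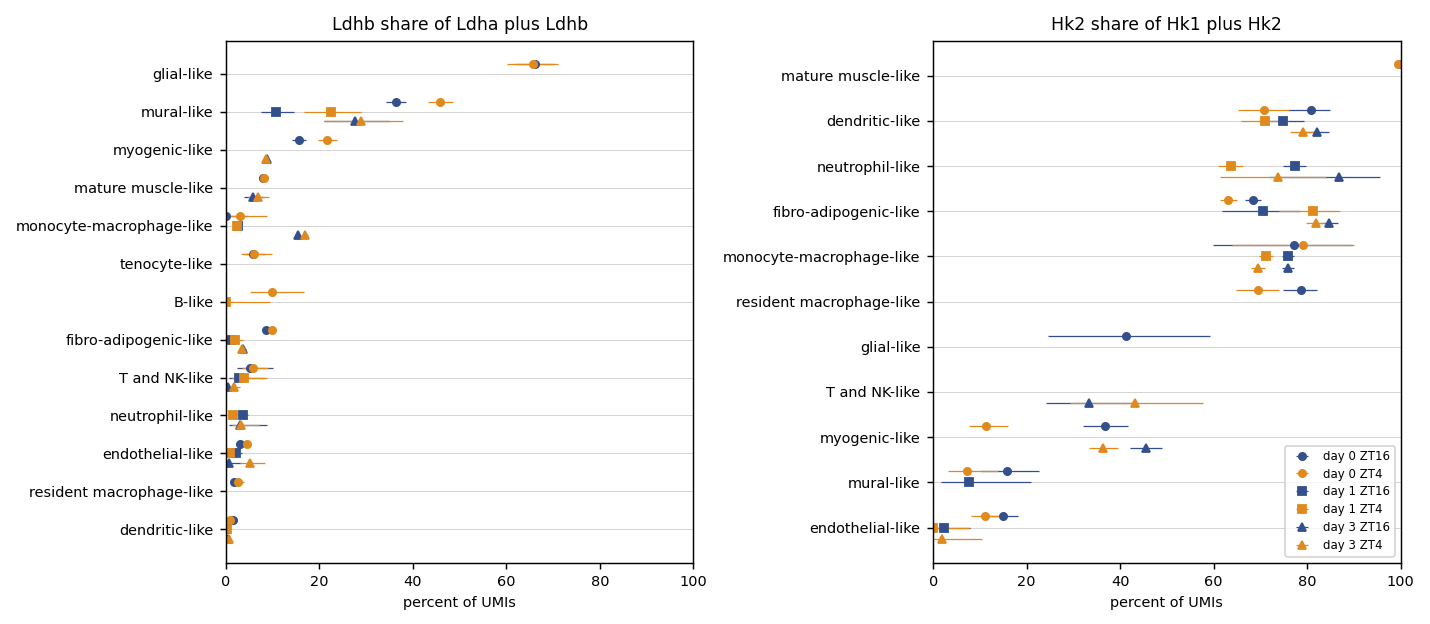
Share of Hk2 in the UMIs of both hexokinases and share of Ldhb in the UMIs of both lactate dehydrogenase subunits, in percent, by class, day and collection time, with exact 95% binomial intervals. Mature muscle-like cells lie at the top for Hk2 and glial-like cells at the top for Ldhb, and the Ldhb share of monocyte-macrophage-like cells is higher on day 3 than on day 1.

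The hexokinase share of Hk2 was higher on day 3 than on day 0 in fibro-adipogenic-like cells. It was 68.5% (ZT16) and 63.1% (ZT4) on day 0, 70.6% (ZT16) and 81.2% (ZT4) on day 1, and 84.8% (ZT16) and 81.8% (ZT4) on day 3. In myogenic-like cells it was 45.4% (ZT16) and 36.4% (ZT4) on day 3. Neutrophil-like cells of day 1 had 77.4% at ZT16 and 63.7% at ZT4, and monocyte-macrophage-like cells 75.9% at ZT16 and 71.2% at ZT4.

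The genes whose levels ran most like each member's were taken over 56 class and library units of 13 classes and 13335 genes, by Pearson's r of log2 CPM. The units share libraries and depth, so r is a description with no test. Pdk4 was closest to Tbx1 (r = 0.933) and Slc2a4 to Scn4b (r = 0.907), with Jph2 among its 5, genes found in muscle. Ldha was closest to Timm23 (r = 0.924), and its 5 included the mitochondrial genes Slc25a3, Atp5g1 and Atp5c1. Pkm was closest to the glycolytic genes Gapdh (r = 0.806) and Pgk1 (r = 0.802). Hk1 was closest to Ywhab (r = 0.875), Slc2a1 to Rasa2 (r = 0.844), Hk2 to Pak1 (r = 0.821), Ldhb to Mtfr1l (r = 0.818) and Slc2a3 to Fam107b (r = 0.806). Pfkfb3 had the weakest leading likeness, to Rassf3 (r = 0.75).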

How the data were processed

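The values are UMI counts per gene and barcode that the authors deposited, 1 matrix per library, from barcodes already called as cells. Per the labels' protocols, libraries were made with the 10x Chromium Single Cell 3′ kit v3.1. Cell Ranger 1.0.0 and mm10 are named per the submitters' processing notes, whereas Cell Ranger 6.1.2 wrote the matrices per the file headers. No source used here names the annotation release. Gene coordinates come from GENCODE vM21 on GRCm38.

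Barcodes with under 200 genes, under 500 UMIs or over 10% mitochondrial UMIs were left out. Doublets were scored per library with scrublet in scanpy 1.11.5, and the highest-scoring 0.8% per 1000 barcodes were removed, 5563 in all, since the automatic threshold marked 1 and 3 barcodes on day 3. This left 7638 to 11168 cells per library, with median UMIs of 3173 to 11125. Clustering (Python 3.11.15, numpy 2.4.6, scipy 1.17.1, pandas 2.3.3, scikit-learn 1.9.0, igraph 0.11.9, leidenalg 0.10.2; figures with matplotlib 3.10.9) used 2000 variable genes without the members and list genes, 30 components, 15 neighbours and Leiden resolution 1. It gave 44 clusters. A cluster was named when at least 3 of a class's fixed markers, and over 25% of them, were raised by 2-fold over the remaining cells and found in 10% of its own, in clusters of at least 20 cells. Of the 44, 39 were named and 5, with 2059 cells, were not.

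UMIs were summed per class and library, and 0.5 UMI was added for log2 ratios. Intervals are exact Poisson (levels), exact binomial conditional on the total (ratios) and Clopper-Pearson (shares), at 95%. With 1 library per group there was no test. A group at 0 UMIs was set at a floor of 3 UMIs per library. The sums and ratios were checked on simulated counts.

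The members and lists were chosen with earlier results of these data known. Named were all 10 members and, from each list, at most the 5 genes with the largest ratio past 1.5-fold in a class; likeness named 5 genes a member. Chosen after the data were seen were the pooling of macrophage markers, the resident macrophage rule (at least 6 of 8 markers), the 25% and 20-cell limits and 1 alternative.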

Additional observations from a re-analysis of the deposited data

Results flagged for a closer look

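Some members differed in opposite directions between ZT16 and ZT4 in a pair of classes of the same libraries. The difference between the classes was not tested, since each ratio compares 1 library with 1 library. On day 3 the log2 ratio of Hk1 at ZT16 over ZT4 was 0.833 in T and NK-like cells, where endothelial-like cells were at −0.848. The T and NK-like class held 182 cells of cluster 22 and 98 of cluster 30 at ZT16, and 123 and 152 at ZT4. On day 1 the ratio of Ldhb was 1.03 in neutrophil-like cells, where mural-like cells were at −1.24. On day 0 the ratio of Slc2a3 was 0.876 in fibro-adipogenic-like cells, where resident macrophage-like cells were at −0.785 on 11 UMIs at ZT16 and 27 at ZT4, with an interval across 0.

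Cells outside the named classes also held the members. Cluster 19, led by Csrp3 and Mustn1 with 12 of 12 fibre markers, stayed unnamed because its median UMIs were 0.203 times those of its libraries and none of those markers led it. On day 1 it held 501 cells at ZT16 and 317 at ZT4, when the fibre-like class had nearly none. Hk2 was at 164 CPM at ZT16 and 169 CPM at ZT4 there, where the highest class of day 1 had 142 CPM. Pkm was at 1100 CPM at ZT16 and 1390 CPM at ZT4, and Ldha at 1630 CPM at ZT16 and 1750 CPM at ZT4, where the highest class had 547 CPM of Ldha. Pdk4 was at 77.0 CPM at ZT16 and 96.0 CPM at ZT4, where the highest class had 1.52 CPM.

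Cluster 35, led by Apln and Sh2d5, had 10 of 12 markers of one class but leading genes of another and stayed unnamed. Hk1 was at 100 CPM at ZT16 and 143 CPM at ZT4 there on day 1, where the highest class had 76.3 CPM.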

How the results depend on the processing

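Of 584 recomputed member values, 498 moved by less than their limit, 79 moved further and 7 turned sign. Past 1.5-fold under each alternative run for them were 14 of the 32 values called between collection times and 23 of the 43 called between days. With barcodes of high doublet scores kept, day 1 gave 1 higher and 8 lower at ZT16, and Hk2 of mural-like cells on day 0 was −0.0825. At most 5% mitochondrial UMIs left 1 higher and 3 lower for day 1 over day 0, since classes fell under 50 cells. Cells thinned to 1000 UMIs gave 6 higher and 4 lower at ZT16 for day 0, 1 higher and 3 lower for day 1, and 1 of each for day 3. They gave 3 higher and 3 lower for day 1 over day 0, and 3 lower for day 3 over day 0. Few UMIs remained there, and Pdk4 of mural-like cells turned to 0.15 (13 UMIs), Pfkfb3 of myogenic-like cells to 0.15 (7 UMIs), Pfkfb3 of dendritic-like cells on day 1 to 0.13 (18 UMIs), and, for day 1 over day 0 in fibro-adipogenic-like cells, Slc2a4 to 2.18 and Pdk4 to 0.53. Free RNA subtracted left 1 lower on day 3, as did Leiden resolution 0.5. Fibre RNA subtracted left 4 lower for day 1 over day 0 and turned Hk2 of endothelial-like cells, day 3 over day 0, to 0.76 on 9.62 UMIs. It was not run on counts of day 1, where fibre-like cells were too few, or on mature muscle-like cells. Their values stayed the same by design and are counted among the 584. Day 1 over day 0 thus set subtracted counts of day 0 against unchanged counts of day 1. Members and pathway genes used for clustering gave 15 lower for day 3 over day 1.

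At least 100 UMIs gave 3 lower on day 0, 0 higher and 3 lower on day 1, and 2 higher and 0 lower on day 3. Between days it gave 4 lower (day 1 over day 0), 7 lower (day 3 over day 0) and 1 higher (day 3 over day 1). At least 10 UMIs gave 5 higher and 8 lower on day 1, 9 higher and 8 lower on day 3, 11 lower for day 1 over day 0 and 6 higher for day 3 over day 1. A 2-fold limit gave 3 higher and 3 lower for day 0, 1 higher and 2 lower for day 1, and 0 higher and 1 lower for day 3, with 3 higher and 5 lower for day 3 over day 0 and 4 lower for day 3 over day 1. Fibro-adipogenic-like cells without cluster 29, an alternative chosen after seeing the data, left 4 lower for day 1 over day 0, the class then holding 48 cells at ZT16 on day 1. Causes were not tested beyond these.

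No paired analysis was possible because each group is 1 library, and leaving out a library would empty its group. Differences of members under 30 UMIs in a class were not counted at this depth, and levels on so few UMIs are given with them.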
